A study of Mus musculus with 10 samples.

Results

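The genes of antigen presentation were taken from the deposited expression table by symbol: every symbol that starts with H2-, the prefix of the mouse major histocompatibility complex (MHC), and a fixed set of partners (Cd74, B2m, Cd1d1, Ciita, Nlrc5, Tap1, Tap2, Tapbp, Psmb8, Psmb9, Psmb10, Psme1, Psme2 and Erap1). This gave 58 of the 24525 genes in the table. They were 35 class I genes, 11 class II genes, 11 genes of peptide processing and regulation, and H2-Ke6, a steroid dehydrogenase gene that lies in the same region and was kept apart. Levels are FPKM, fragment counts scaled to transcript length and to the library's mapped total, as the authors deposited them. Of the 58 genes, 44 averaged at least 1 FPKM over the 10 libraries and were tested. The 14 below that level were 12 class I and 2 class II genes, and 6 of these 14 were listed at 0 in every library. Among those 6 was H2-Ea-ps, the class II alpha chain gene that is defective in C57BL/6 mice.

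The comparison set 5 colorectal tumours against 5 samples of adjacent colon tissue. All mice were males of strain C57BL/6 (C57BL/6N in the growth protocol) from the same brood, aged 7 weeks and weighing 18 to 20 g at the start. Tumour and adjacent tissue shared the treatment, which was a single injection of 12.5 mg/kg azoxymethane (AOM), a colon mutagen, followed a week later by 3 cycles of dextran sulfate sodium (DSS), an agent toxic to the gut lining. Each cycle of 3 weeks was made of 5 days on drinking water with 2% DSS and 16 days on water alone, and tissue was labelled as taken 10 weeks after AOM. Of 15 mice, 12 were treated and 3 were not, but no library carries a label of an untreated animal. The adjacent tissue is therefore treated colon, not naive colon. The source label gives mouse 1 for every library, so the labels leave unsettled which tumours and adjacent samples share an animal, and p-values measure only the spread between these samples. Whole frozen tissue was ground before RNA extraction, so fewer cells of a type and less RNA per cell cannot be told apart in any value here.

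MHC class I molecules are carried by nearly all nucleated cells. A heavy chain pairs with beta-2 microglobulin (B2m) and holds a peptide cut by the proteasome, moved into the endoplasmic reticulum by the transporter Tap1/Tap2 and loaded with help from tapasin (Tapbp), for display to CD8+ T cells. H2-K1 and H2-D1 are the classical heavy chains, while the Q, T and M genes encode the non-classical ones, among them Qa-2, the TL antigen (H2-T3, typical of intestinal epithelium) and Qa-1 (H2-T23). MHC class II molecules display endosomal peptides to CD4+ T cells, are carried mainly by dendritic cells, B cells and macrophages, and appear on intestinal epithelium under interferon gamma. Nlrc5 is the transcriptional coactivator of class I genes and Ciita that of class II genes.

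On the first principal component of all tested genes, tumour 2 (score 28.1) and tumour 4 (42.6) lay nearest to adjacent tissue. The other tumours scored 64.8 to 68.3 and the adjacent samples -39.6 to -70.7. Markers of mature colonocytes and goblet cells summed to 1605 and 1861 FPKM in tumours 2 and 4, to 282 to 374 FPKM in the other tumours and to 9374 to 13020 FPKM in adjacent tissue, and all 8 fell. Of 6 general epithelial markers 5 fell and 1 rose, with sums of 6479 to 8031 FPKM in adjacent tissue and 3635 to 5741 FPKM in tumours, so that every tumour lay below every adjacent sample. Depth, read roughly from the steps between low values, was 20800000 to 26100000 fragments per library. Over all genes the comparison was broad and lopsided: 57.2% of 13016 tested genes were higher in tumours and 19.3% lower (limma on log2(FPKM + 1), adjusted p under 0.05). The median change over tested genes was 0.35 on the log2(FPKM + 1) scale. After subtraction of library medians, 34.5% were higher and 33.3% lower.

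The upstream regions of these genes hold short elements through which the pathway is known to be switched on. Promoter windows (from 250 bases before to 50 after the start) of RefSeq on GRCm38.p6 were found for 41 of the 58 genes. Stretches of 6 of them are printed below, 5′ to 3′ on the gene's own strand, because they cover a classical class I gene, 2 class I genes of the Q region at higher level in most tumours, 1 that fell, and 2 class II chains. Capitals mark matches, on either strand, to motifs chosen after the promoters were seen: GGGNNTTCC (NF-kappaB), TTTCACTT (the class I interferon response sequence), TGACG (site alpha, or X2 in class II genes), CCAAT (read as ATTGG on the other strand) and AGCAAC (X1).
H2-K1 (chr17:34000354-34000553, minus strand): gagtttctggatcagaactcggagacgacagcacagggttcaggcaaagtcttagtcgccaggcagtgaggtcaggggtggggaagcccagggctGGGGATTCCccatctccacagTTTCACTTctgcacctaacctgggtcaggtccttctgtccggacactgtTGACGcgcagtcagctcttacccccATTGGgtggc
H2-Q7 (chr17:35438935-35439134, plus strand): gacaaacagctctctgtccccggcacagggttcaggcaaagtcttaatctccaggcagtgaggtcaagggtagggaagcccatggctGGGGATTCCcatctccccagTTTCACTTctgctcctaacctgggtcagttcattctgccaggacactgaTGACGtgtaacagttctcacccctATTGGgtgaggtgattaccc
H2-Q4 (chr17:35379397-35379596, plus strand): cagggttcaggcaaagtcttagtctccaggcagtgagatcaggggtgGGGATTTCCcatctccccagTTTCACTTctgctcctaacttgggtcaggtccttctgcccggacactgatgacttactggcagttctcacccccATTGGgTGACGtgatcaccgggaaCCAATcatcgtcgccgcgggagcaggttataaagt
H2-Q2 (chr17:35342087-35342241, plus strand): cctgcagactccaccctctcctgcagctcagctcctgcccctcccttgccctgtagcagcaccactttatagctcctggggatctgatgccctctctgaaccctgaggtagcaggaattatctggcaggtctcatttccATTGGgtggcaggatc
H2-Aa (chr17:34287844-34288043, minus strand): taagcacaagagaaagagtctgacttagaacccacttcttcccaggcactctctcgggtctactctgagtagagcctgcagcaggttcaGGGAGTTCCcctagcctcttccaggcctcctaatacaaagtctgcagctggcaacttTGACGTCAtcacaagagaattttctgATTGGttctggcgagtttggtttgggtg
H2-Eb1 (chr17:34305647-34305846, plus strand): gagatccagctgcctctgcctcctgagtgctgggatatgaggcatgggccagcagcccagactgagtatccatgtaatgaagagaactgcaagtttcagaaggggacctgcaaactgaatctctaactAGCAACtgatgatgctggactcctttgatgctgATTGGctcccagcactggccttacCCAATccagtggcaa

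H2-K1, H2-Q7 and H2-Q4 carry GGGNNTTCC followed by TTTCACTT, with TGACG and CCAAT matches nearer the start. The stretch of H2-Q2 has only the CCAAT match. H2-Aa has GGGNNTTCC, overlapping TGACG matches on opposite strands, and CCAAT, while H2-Eb1 has AGCAAC and CCAAT. Across the whole windows, TTTCACTT was present in 8 of 13 tested class I genes with a window and 0 of 7 class II genes, against 1.6% of all 32817 RefSeq windows. GGGNNTTCC was in 5 of those class I genes and 2 of the class II genes (5.82% of all windows), and TGACG in 8 and 1 (20.79% of all). CCAAT was in 11 of 13 and 7 of 7 (37.39% of all), and AGCAAC in 3 of 13 and 3 of 7 (14.8% of all). The window of H2-T3 held TTTCACTT as its only match, and that of H2-T23 held CCAAT and, past the start, AGCAAC. A match is a description of letters and not evidence of binding.

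Class I genes moved in both directions, and the classical heavy chains H2-K1 and H2-D1 did not pass the test. Of 23 tested class I genes, 5 rose in tumours (Cd1d1, H2-Q5, H2-Q7, H2-Q8 and H2-Q9), 5 fell (H2-K2, H2-Q1, H2-Q2, H2-T3 and H2-T23) and 13 passed in neither direction. H2-T3 met the expression filter only through adjacent tissue, so its fall and its separation below are no support for a change. The backgrounds are the 57.2% and 19.3% of all tested genes above. The median class I change was 0.13, against 0.35 for all tested genes. In Cd1d1 every tumour lay above every adjacent sample, and in H2-K2, H2-Q1, H2-Q2 and H2-T3 every tumour lay below, where 46.5% and 14.3% of all tested genes were so separated. With library medians subtracted 3 rose and 5 fell (background 34.5% and 33.3%). With quantile normalization 3 rose (background 36.6% higher and 30.2% lower). The count of 5 rises was 3 without adjacent sample 5 or without tumour 2, and without tumours 2 and 4 together 3 rose and 7 fell (background 57.7% and 20.0%). This pair was chosen after the data were seen. Where both are a gene's highest tumours, a lower level without them is no support for a fall.

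**Figure D1:**
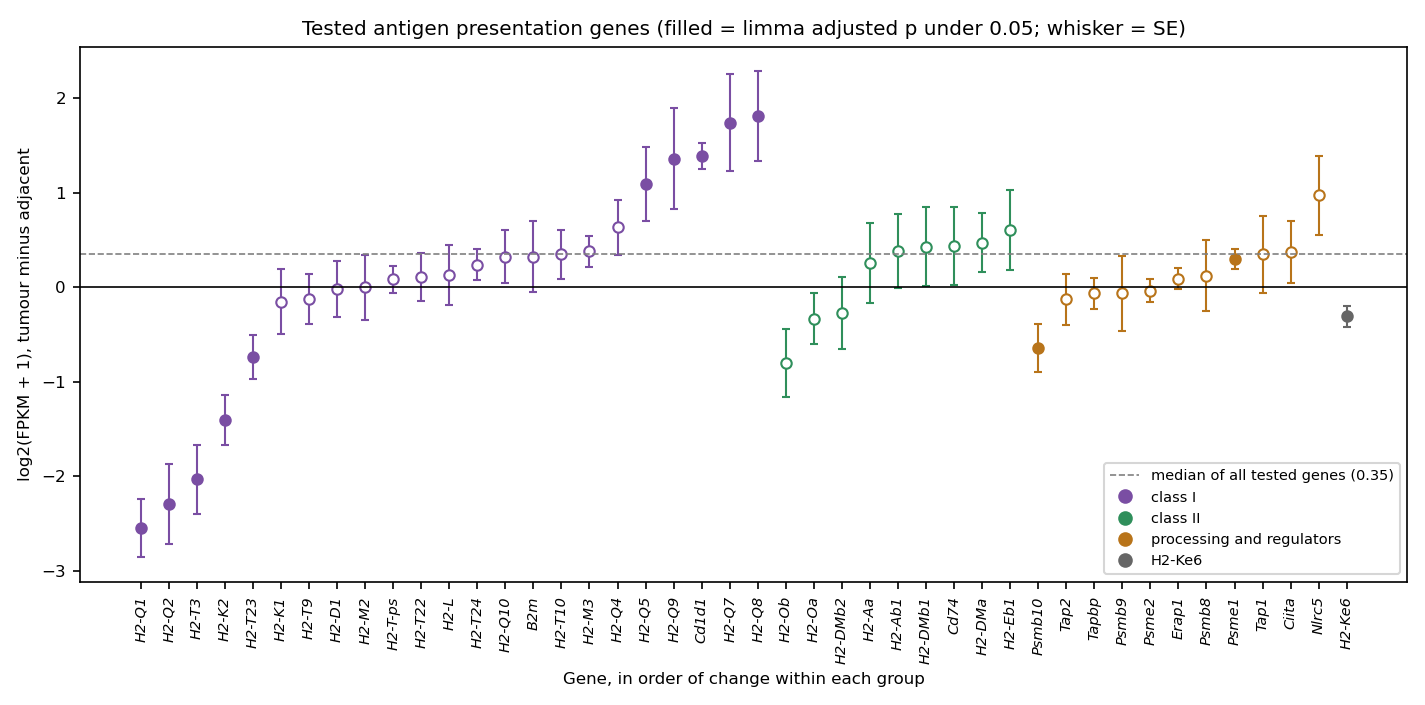
Change of each of the 44 tested genes, tumour minus adjacent, on the log2(FPKM + 1) scale, with the SE as whisker, filled circles for limma adjusted p under 0.05 and the dashed line at the median of all tested genes, 0.35. Class I genes run from -2.55 (H2-Q1) to 1.81 (H2-Q8), while no class II circle is filled.

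H2-K1, a classical heavy chain gene (GRCm38 chr17:33996017-34000347, minus strand), was at 632, 914, 538, 745 and 685 FPKM in adjacent samples 1 to 5. In tumours 1 to 5 it was at 511, 892, 565, 1258 and 289.9 FPKM. Tumour 4 was the highest of all 10 libraries and tumour 5 the lowest, so the tumours enclosed the adjacent range. H2-D1, the other classical chain (chr17:35262730-35267499), was at 596, 832, 539.9, 676 and 611 FPKM in adjacent tissue and at 539, 885, 603, 1133 and 321 FPKM in the tumours. The means of H2-K1 were 703 ± 140.3 and 703 ± 378 FPKM (SD, n = 5 each), and those of H2-D1 651 ± 112 and 696 ± 317 FPKM. The log2 changes of -0.15 (SE 0.34, limma adjusted p = 0.695) and -0.02 (SE 0.29, limma adjusted p = 0.962) did not pass. Without tumours 2 and 4, the highest tumours for both genes, H2-K1 had a log2 change of -0.66 (limma adjusted p = 0.0289) and H2-D1 -0.45 (limma adjusted p = 0.0778). The pair was chosen after the data were seen, so neither value is support for a fall.

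B2m, the light chain shared by class I molecules (chr2:122147686-122153083), was at 718, 1171, 630, 848 and 540 FPKM in adjacent samples and 786, 1340, 896, 1947 and 407 FPKM in tumours 1 to 5. Again tumour 4 was the highest library and tumour 5 the lowest. The change was 0.32 (SE 0.38, limma adjusted p = 0.446). H2-M3, which presents formylated bacterial peptides, was at 5.70 ± 1.10 and 7.81 ± 1.98 FPKM (limma adjusted p = 0.0563). H2-T22 and H2-T10, ligands of gamma delta T cells, were at 11.6 ± 2.18 and 1.28 ± 0.377 FPKM in adjacent tissue against 13.4 ± 6.19 and 2.09 ± 1.40 FPKM in tumours, and neither passed. These last 2 share much sequence, so reads may have been split between them. Of their 50-base stretches, 34.4% and 32.4% also occur in other listed genes, leaving out H2-T9, which was not compared.

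H2-Q7, H2-Q8, H2-Q9 and H2-Q5, genes of the Q region, rose, with 4 of the 5 tumours above every adjacent sample. H2-Q7 (chr17:35439155-35443773, plus strand), which encodes Qa-2, was at 12.4, 16.95, 11.1, 13.3 and 8.87 FPKM in adjacent samples and at 39.4, 47.3, 47.7, 145 and 11.48 FPKM in tumours 1 to 5. Tumours 1 to 4 lay above all adjacent samples, tumour 4 far above the rest, and tumour 5 within the adjacent range. The change was 1.74 (SE 0.51, limma adjusted p = 0.0102). H2-Q8 was at 10.4, 13.0, 11.0, 10.7 and 6.25 FPKM in adjacent tissue and at 32.6, 45.8, 40.2, 109.8 and 11.2 FPKM in the tumours. Its order across the tumours followed the same extremes, and it rose by 1.81 (SE 0.47, limma adjusted p = 0.00517).

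H2-Q9, which also encodes Qa-2, was at 9.30, 17.5, 7.88, 10.8 and 6.62 FPKM in adjacent samples and 23.01, 34.4, 25.5, 93.2 and 7.11 FPKM in tumours. H2-Q5 (chr17:35394126-35397800, annotated as a polymorphic pseudogene) was at 8.42, 11.8, 7.75, 8.87 and 6.60 FPKM in adjacent samples and 17.1, 21.9, 17.8, 52.1 and 7.44 FPKM in tumours. In both genes tumour 5 stayed among the adjacent samples. The rises of H2-Q9 (1.36, SE 0.54, limma adjusted p = 0.0389) and H2-Q5 (1.09, SE 0.39, limma adjusted p = 0.0261) were less stable than those of H2-Q7 and H2-Q8, which passed with any single library left out. H2-Q9 no longer passed in 8 of 10 such fits, all but those without adjacent sample 2 or tumour 5 (limma adjusted p up to 0.0804), and H2-Q5 no longer passed without adjacent sample 3, adjacent sample 5 or tumour 2 (0.0508 to 0.0555). With medians subtracted neither passed (limma adjusted p = 0.122 and 0.118), and without tumours 2 and 4 the changes were 0.67 and 0.57 (0.169 and 0.0816). H2-Q7 changed by 1.13 without tumours 2 and 4 (limma adjusted p = 0.0306).

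Because the Q genes resemble each other, their sum is given as well. H2-Q6 to H2-Q9 together were at 32.1, 52.8, 30.0, 34.9 and 22.7 FPKM in adjacent samples and at 94.95, 127, 113, 348 and 30.0 FPKM in tumours 1 to 5. The ratio of the means was 4.14, and tumour 5 again overlapped with adjacent tissue. H2-Q6 was listed at 0 in most libraries and reached 5.33 FPKM in adjacent sample 2. Of the 50-base stretches of H2-Q7 and H2-Q5, 25.1% and 36.5% also occur in other listed genes of the GENCODE M21 annotation. H2-Q8 and H2-Q9 were not matched in that annotation and were not compared, so these percentages may be too low. The share of each gene is therefore uncertain, and the rises of H2-Q7, H2-Q8 and H2-Q9 may not be separate. H2-Q4 (chr17:35379617-35385290), a broadly expressed neighbour, was at 57.8, 92.3, 66.3, 62.4 and 55.9 FPKM in adjacent samples and 93.0, 116, 106, 192 and 51.9 FPKM in tumours, a change of 0.64 that did not pass (SE 0.29, limma adjusted p = 0.0682). It passed without adjacent sample 2 (0.0463) or without tumour 5 (0.00492, both limma adjusted p). An antisense gene, Gm11131, covers 19.1% of the exon bases of H2-Q4, and the library kit does not mark strand. A gene on the opposite strand also covers 10.4% to 29.4% of the exon bases of H2-T22, H2-T10, Tapbp, H2-Oa, Psmb8, Tap2, Erap1 and H2-DMa.

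H2-Q1 and H2-Q2, in the same cluster, went the other way. H2-Q1 (chr17:35320405-35325099, plus strand) was at 18.1, 20.9, 13.6, 18.3 and 18.4 FPKM in adjacent samples and at 1.45, 5.27, 1.10, 3.84 and 1.12 FPKM in tumours 1 to 5. No tumour reached the lowest adjacent sample, and tumours 2 and 4 were the highest of the tumours. It fell by 2.55 (SE 0.31, limma adjusted p = 4.89e-05). H2-Q2 (chr17:35342242-35346762, plus strand) was at 39.9, 48.6, 31.6, 45.4 and 30.7 FPKM in adjacent tissue and at 3.76, 19.9, 4.65, 13.1 and 3.28 FPKM in the tumours. Tumours 2 and 4 again stood highest, still below every adjacent sample, and the gene fell by 2.30 (SE 0.42, limma adjusted p = 0.000617). The sum of both averaged 57.1 ± 10.1 FPKM in adjacent tissue and 11.49 ± 9.21 FPKM in tumours (SD, n = 5 each), 4.97-fold lower. The gene models of the 2 share 9.05% of H2-Q1's and 12.9% of H2-Q2's 50-base stretches. Mature colonocyte and goblet cell markers moved in the same direction and with the same tumours 2 and 4 highest. Their part in the fall of H2-Q1 and H2-Q2 was not tested.

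H2-T3, the thymus leukaemia antigen of intestinal epithelium (chr17:36185572-36190287, minus strand), was at 5.68, 3.86, 4.03, 5.67 and 0.51 FPKM in adjacent samples and at 0.02, 0.35, 0, 0.04 and 0 FPKM in tumours 1 to 5. Adjacent sample 5 stood far below the other adjacent samples but above the highest tumour, tumour 2. It fell by 2.03 (SE 0.36, limma adjusted p = 0.000487). The gene passed the expression filter only through its adjacent values, so its fall is no support for a change. H2-T23, which encodes Qa-1, the ligand of the CD94/NKG2A receptor (chr17:36029773-36032855, minus strand), was at 169, 247, 185, 203 and 189.9 FPKM in adjacent samples and 107, 180.2, 93.3, 168 and 74.8 FPKM in tumours. Tumour 2 lay inside the adjacent range and the other tumours below it. The fall of 0.74 (SE 0.23, limma adjusted p = 0.0137) became a log2 change of -1.11 without tumours 2 and 4, its highest tumours (limma adjusted p = 9.52e-05). H2-K2, a transcribed pseudogene beside H2-K1 (chr17:33974659-33978827), was at 12.0, 15.0, 7.76, 9.25 and 7.33 FPKM in adjacent samples and 2.09, 4.45, 2.43, 5.77 and 2.06 FPKM in tumours. All tumours were below all adjacent samples, and it fell by 1.40 (SE 0.26, limma adjusted p = 0.000654).

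Cd1d1, which presents lipids to natural killer T cells and lies outside the MHC (chr3:86995834-86999441, minus strand), was at 4.25, 3.04, 3.98, 4.05 and 4.53 FPKM in adjacent samples and at 13.3, 8.18, 12.4, 12.7 and 14.2 FPKM in tumours 1 to 5. Every tumour was above every adjacent sample, with tumour 2 the lowest tumour. It rose by 1.39 (SE 0.14, limma adjusted p = 2.28e-05), and by 1.53 without tumours 2 and 4. Tumour 5, the lowest tumour for H2-Q5 and H2-Q7 to H2-Q9, was the highest for Cd1d1. None of its 50-base stretches occurred in another listed gene of the GENCODE M21 annotation.

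**Figure D2:**
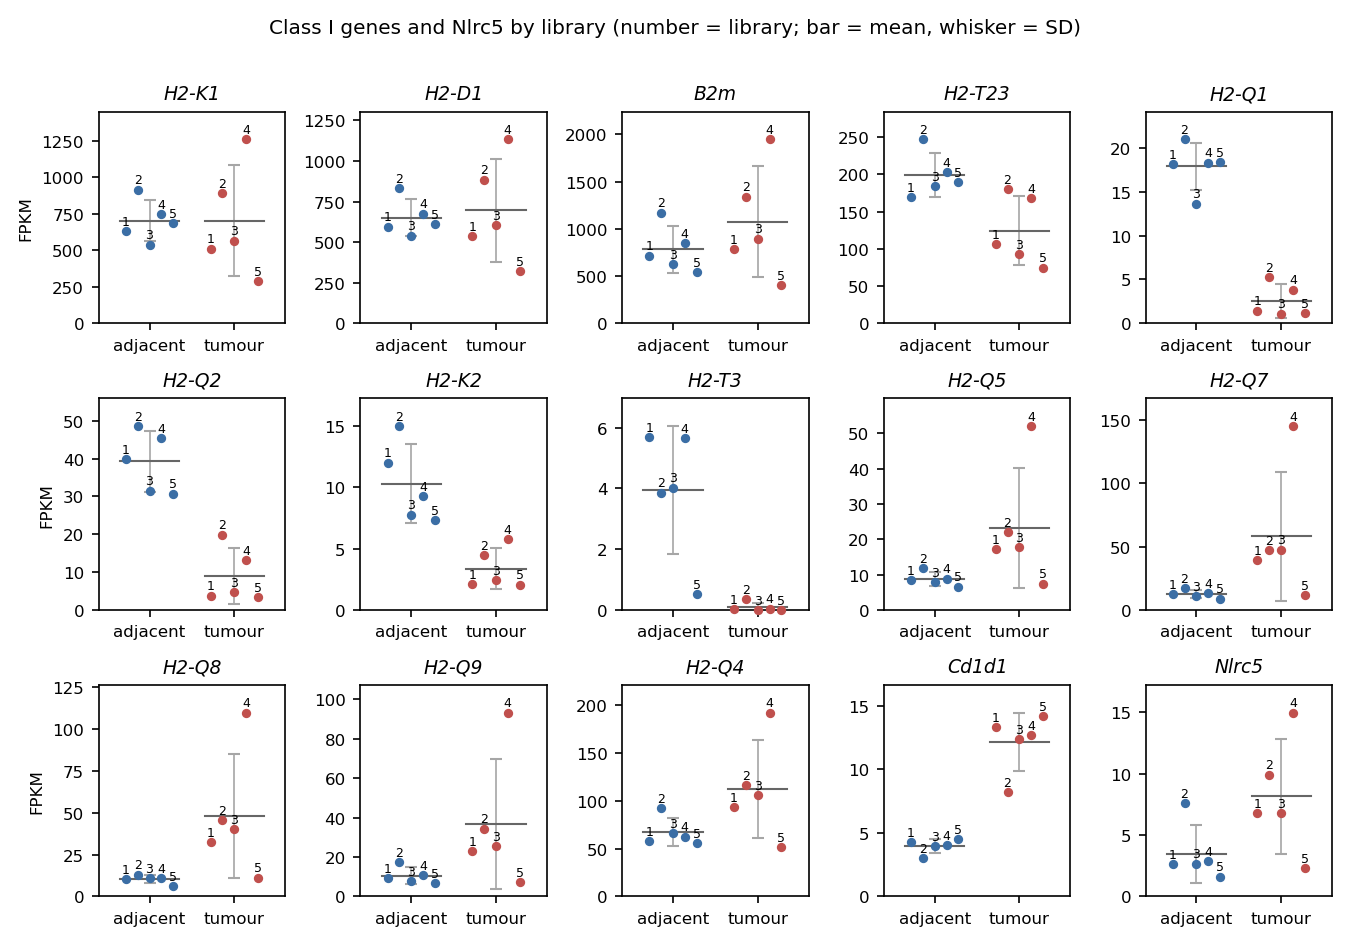
FPKM of class I genes and of Nlrc5 in each library, with the library number at each point, the mean as a bar and the SD as a whisker. Tumours 1 to 4 exceed all adjacent samples in H2-Q7 and H2-Q8, all tumours lie below all adjacent samples in H2-Q1, H2-Q2, H2-K2 and H2-T3, and H2-K1 and H2-D1 overlap.

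Of 11 peptide processing and regulator genes 1 rose (Psme1), 1 fell (Psmb10) and 9 passed in neither direction, at a median change of 0.09. Of all tested genes 57.2% rose and 19.3% fell, at a median of 0.35. In none of the 11 did the groups separate, against 46.5% of all tested genes with every tumour above and 14.3% with every tumour below. Nlrc5, the class I coactivator (chr8:94434356-94527272), was at 2.66, 7.63, 2.67, 2.90 and 1.62 FPKM in adjacent samples and 6.76, 9.93, 6.77, 15.0 and 2.29 FPKM in tumours 1 to 5. Adjacent sample 2 overlapped with the tumours and tumour 5 with the adjacent samples. The change of 0.97 (SE 0.42) just missed the threshold (limma adjusted p = 0.0554), and passed without adjacent sample 2 (0.0170, limma adjusted p) or tumour 5 (0.00730, limma adjusted p).

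Neither chain of the peptide transporter passed. Tap1 (chr17:34187553-34197225) was at 15.1, 44.8, 17.5, 22.7 and 15.6 FPKM in adjacent samples and 21.5, 38.9, 27.3, 55.1 and 11.7 FPKM in tumours. Tap2 (chr17:34203527-34216321) was at 22.03, 34.95, 25.1, 25.8 and 26.2 FPKM in adjacent samples and 21.8, 35.5, 22, 39.1 and 12.4 FPKM in tumours. For each chain tumour 4 was the highest and tumour 5 the lowest of all 10 libraries. Their changes were 0.35 (SE 0.41, limma adjusted p = 0.443) and -0.12 (SE 0.27, limma adjusted p = 0.686). Tapbp, tapasin, was at 104 ± 13.6 and 102 ± 24.3 FPKM, and Erap1, which trims peptides in the endoplasmic reticulum, at 21.2 ± 1.501 and 22.9 ± 4.12 FPKM, and neither passed. Without tumours 2 and 4, its highest tumours, Tap2 passed as lower, at -0.52 (limma adjusted p = 0.0379), which is no support for a fall.

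Constitutive proteasome subunits rose, while none of the inducible subunits that replace them did. Psmb8, Psmb9 and Psmb10 are the interferon-inducible catalytic subunits, which take the places of Psmb5, Psmb6 and Psmb7. Psmb8 was at 36.4, 73.5, 44.7, 49.5 and 31.4 FPKM in adjacent samples and 42.2, 71.3, 46.5, 98.2 and 20.7 FPKM in tumours. Psmb9 was at 27.2, 58.1, 34.7, 35.2 and 25.3 FPKM in adjacent samples and 24.3, 53.7, 28.9, 71.4 and 14.3 FPKM in tumours. The tumours of both genes spread around the adjacent range, with changes of 0.12 (limma adjusted p = 0.773) and -0.06 (limma adjusted p = 0.894). Psmb10 was at 92.5, 137, 110.5, 107 and 80.5 FPKM in adjacent samples and 59.6, 99.7, 57.5, 96.9 and 38.2 FPKM in tumours. Tumours 2 and 4 overlapped with adjacent tissue and tumours 1, 3 and 5 lay below it. It fell by 0.64 (SE 0.25, limma adjusted p = 0.0395), but the call was lost in 7 of 10 fits with 1 library left out, all but those without adjacent sample 5, tumour 2 or tumour 4 (limma adjusted p up to 0.0930). Without tumours 2 and 4, its highest tumours, the log2 change of Psmb10 was -1.02 (limma adjusted p = 0.00101), which adds no support for the fall.

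All 5 genes of the constitutive list rose, also with medians subtracted (57.2% and 34.5% of all tested genes): Psmb5 by 0.70, Psmb6 by 0.70, Psmb7 by 0.61, and the activator genes Psme3 by 0.67 and Psme4 by 0.59. The ratio of inducible to constitutive subunit within a library does not depend on that library's scaling. Psmb10/Psmb7 was 0.991, 1.70, 1.37, 1.40 and 1.05 in adjacent samples and 0.475, 0.870, 0.456, 0.784 and 0.286 in tumours 1 to 5. Every tumour was below every adjacent sample, 2.41-fold lower in the geometric mean (log2 difference -1.27, two-sided exact permutation p = 0.00794, the smallest that 252 splits can give, adjusted p = 0.0238 over 3 ratios). Psmb8/Psmb5 differed by -0.58 (exact permutation p = 0.278, adjusted 0.278) and Psmb9/Psmb6 by -0.78 (exact permutation p = 0.175, adjusted 0.262), and their groups overlapped. In all 3 ratios tumour 5 was the lowest library.

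**Figure D3:**
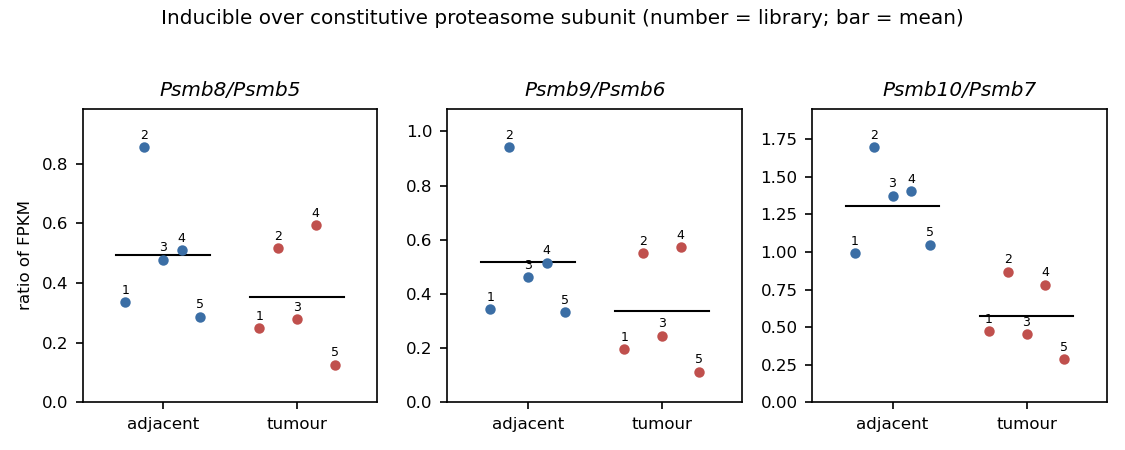
Ratio of FPKM of each inducible proteasome subunit to the constitutive subunit it replaces, by library, with the mean as a bar. For Psmb10/Psmb7 the tumours run from 0.286 to 0.870 and the adjacent samples from 0.991 to 1.70, while the groups overlap in the other ratios.

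Psme1, a subunit of the interferon-inducible PA28 activator, was at 126, 136, 121, 129 and 111 FPKM in adjacent samples and 147, 156, 149.7, 194 and 128 FPKM in tumours. Only tumour 5 fell within the adjacent range, and the gene rose by 0.30 (SE 0.11, limma adjusted p = 0.0234). This is less than the median of all tested genes, and with medians subtracted the change was -0.03 (limma adjusted p = 0.824). Its call was also lost without adjacent sample 5 (limma adjusted p = 0.0564). Psme2, its partner subunit, was at 154 ± 14.6 and 152 ± 27.0 FPKM (limma adjusted p = 0.807). Among 7 chaperones of class I folding and loading, 4 rose, led by Uggt1 by 0.39 and Canx (calnexin) by 0.35, and none fell, which is close to the 57.2% of all tested genes that rose. With medians subtracted none rose and 1 fell (Tapbpl, a peptide editor related to tapasin, -0.65, limma adjusted p = 0.0141). H2-Ke6 fell by 0.30 (27.1 ± 4.05 against 21.6 ± 2.37 FPKM, limma adjusted p = 0.0260), and lost its call in 5 of 10 fits with 1 library left out, those without adjacent samples 1, 3 or 4 or tumours 1 or 3 (limma adjusted p from 0.0525 to 0.0649). Gm20427, a gene on the same strand with no listed values, covers 86.4% of the exon bases of H2-Ke6, so the level of H2-Ke6 is uncertain.

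No class II gene passed in either direction among the 9 tested, against 57.2% and 19.3% of all tested genes. At an unadjusted p under 0.05 there was 1, H2-Ob. The median class II change was 0.38, next to 0.35 for all tested genes, and the groups overlapped in all 9. Cd74, the invariant chain, which guides class II molecules to endosomes (GRCm38 chr18:60803848-60812652), was at 355, 481, 418, 409 and 224 FPKM in adjacent samples and at 316, 1171, 490.1, 745 and 223 FPKM in tumours 1 to 5. Tumours 2 and 4 lay far above all adjacent samples and tumour 3 just above the highest of them, while tumour 1 was within their range and tumour 5 just below it. The change was 0.44 (SE 0.41, limma adjusted p = 0.346).

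The chains of the I-A molecule and the beta chain of I-E had the same leading tumours. H2-Aa (chr17:34282744-34287823, minus strand) was at 121, 158, 152, 139.5 and 66.6 FPKM in adjacent samples and 95.5, 391, 134, 186 and 71.8 FPKM in tumours. H2-Ab1 (chr17:34257689-34269419) was at 119, 146, 139, 120.2 and 81.1 FPKM in adjacent samples and 100.3, 396, 149, 207 and 73.4 FPKM in tumours. H2-Eb1 (chr17:34305867-34316674) was at 69.6, 65.5, 91.5, 53.7 and 41.1 FPKM in adjacent samples and 59.9, 251, 90.7, 129 and 43.5 FPKM in tumours. In each, tumours 2 and 4 exceeded every adjacent sample and tumour 5 was the lowest tumour, close to adjacent sample 5. The summed level of the 3 chains was 313 ± 76.5 FPKM in adjacent tissue and 476 ± 339 FPKM in tumours. Changes ran from 0.26 (H2-Aa, SE 0.42) to 0.61 (H2-Eb1, SE 0.42), with limma adjusted p from 0.209 to 0.584. Without tumours 2 and 4 the changes of Cd74, H2-Aa and H2-Ab1 were -0.17, -0.32 and -0.20 and that of H2-Eb1 -0.01 (limma adjusted p from 0.344 to 0.987).

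Ciita, the class II coactivator (chr16:10480059-10528418), was at 2.03, 3.24, 3.88, 2.40 and 1.64 FPKM in adjacent samples and 2.56, 8.55, 3.37, 4.6 and 1.44 FPKM in tumours, with the same 2 tumours on top (0.37, SE 0.33, limma adjusted p = 0.318). The peptide exchange factor DM (H2-DMa, H2-DMb1 and H2-DMb2) was at 8.06 ± 1.81, 15.8 ± 6.62 and 3.42 ± 2.59 FPKM in adjacent tissue and at 12.7 ± 7.57, 23.6 ± 14.5 and 2.58 ± 1.804 FPKM in tumours. H2-DMb1 and H2-DMb2 share 22.7% and 21.2% of their 50-base stretches. The DO chains, inhibitors of DM found mainly in B cells, had the most negative changes of the class. H2-Ob was at 1.17, 1.75, 5.60, 1.23 and 0.55 FPKM in adjacent samples and 0.32, 1.56, 0.32, 0.59 and 0.19 FPKM in tumours, with adjacent sample 3 high (-0.80, SE 0.36, limma adjusted p = 0.0634). The mean of H2-Ob was 2.06 FPKM in adjacent tissue and 0.596 FPKM in tumours, so it met the filter of 1 FPKM only through adjacent tissue. So did H2-Oa, at 1.27 FPKM in adjacent tissue and 0.798 FPKM in tumours, which did not pass (-0.33, limma adjusted p = 0.287). The negative changes of the DO chains are therefore no support for a fall of both. H2-Ob passed as lower with medians subtracted (-1.13, limma adjusted p = 0.0191), without adjacent sample 5 (0.0264), without tumour 2 (0.0283) and without tumours 2 and 4 together (0.0362, limma adjusted p in each). Tumours 2 and 4 were its highest tumours. Given the filter as well, these calls are no support for a fall of H2-Ob. B cell markers moved with it: adjacent sample 3 had the highest sum of 11 markers, 59.5 FPKM, against 7.14 to 20.6 FPKM in the other adjacent samples and 2.53 to 15.1 FPKM in tumours. Cd79a, a signalling chain of the B cell receptor, fell by 1.25 (limma adjusted p = 0.0357), where 19.3% of all tested genes fell. The tested markers Cd79b and Cd22 did not pass (limma adjusted p = 0.0541 and 0.189). The part of B cell markers in the values of H2-Ob was not tested.

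**Figure D4:**
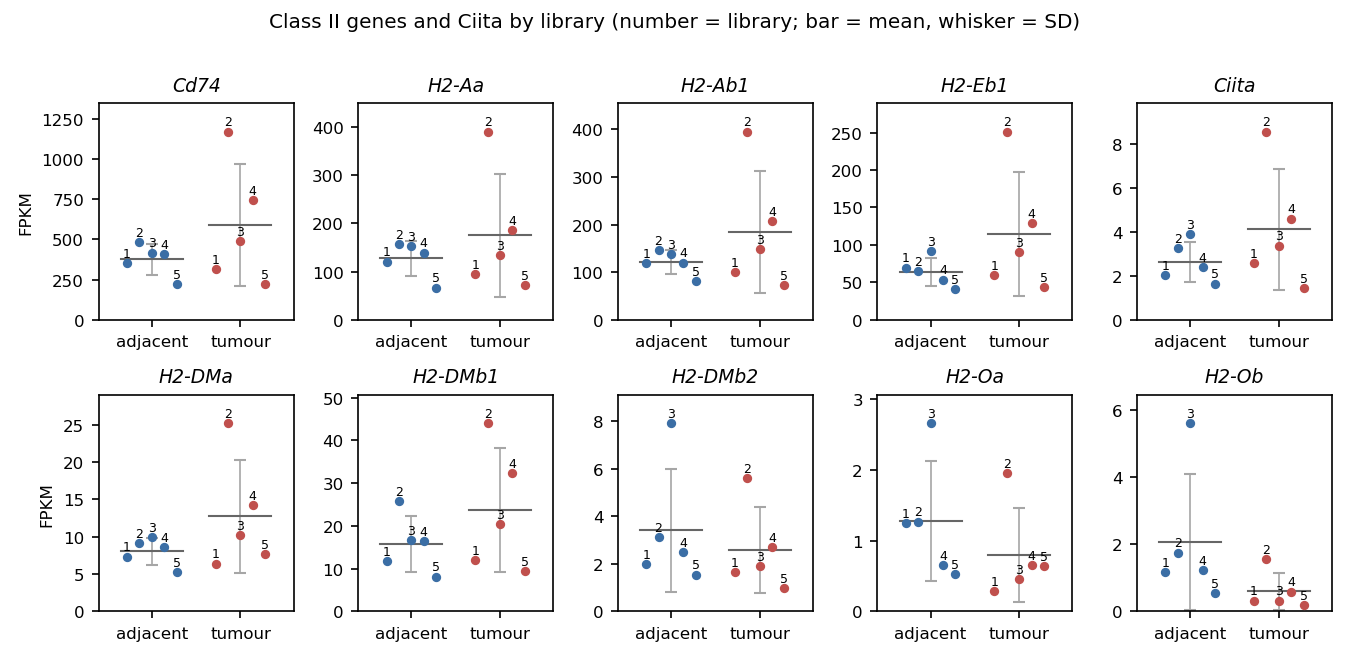
FPKM of Ciita and 9 class II genes in each library, with the library number at each point, the mean as a bar and the SD as a whisker. Tumour 2 is the highest tumour in all 9 class II genes, and adjacent sample 3 is the highest library for H2-DMb2, H2-Oa and H2-Ob.

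Tumours differed among themselves more often than adjacent samples did in class I and class II genes. The SD of FPKM was at least 2 times as large in tumours for 15 of 23 class I genes, 6 of 9 class II genes and 4 of 11 processing genes, against 34.4% of all tested genes, to which the share of processing genes was close. Tumours 2 and 4 led both class I and class II, mostly in a different order. Tumour 4 was the highest tumour in 15 of 23 class I genes and 8 of 11 processing genes. Tumour 2 was the highest in 7 of 23 class I genes and second in 12. In class II genes tumour 2 was the highest in 9 of 9 with tumour 4 second in 9 of 9. Tumour 5 was the lowest in 18 of 23 class I genes, 7 of 9 class II genes and 11 of 11 processing genes. Among adjacent samples, sample 2 was the highest in 16 of 23 class I genes and 9 of 11 processing genes, and sample 5 was the lowest in 14 of 23 class I genes and 9 of 9 class II genes. Genes within a group are measured in the same libraries and are not independent counts of this order. The highest and lowest libraries were not counted over all tested genes, here or for the lists below. These orders therefore cannot be called particular to these genes.

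Interferon gamma targets, as a list beside the members, had the same leading libraries as class I. Tumour 4 was the highest tumour in 15 of 18 tested targets, tumour 5 the lowest in 17 of 18, and adjacent sample 2 the highest adjacent sample in 18 of 18. Of the 18, 8 rose and none fell, a smaller share of rises than the 57.2% of all tested genes, with a median change of 0.78. Without tumours 2 and 4, 6 rose and 1 fell (57.7% and 20.0% of all tested genes). The pair was chosen after the data were seen, so the fall is no support for a lower level. Tgtp2, an interferon-inducible GTPase, rose by 2.06 and Cxcl9, a T cell chemokine, by 1.91. Tgtp2 was at 3.06, 6.63, 3.40, 2.71 and 3.61 FPKM in adjacent samples and 12.1, 24.1, 21.1, 33.8 and 10.6 FPKM in tumours, with every tumour above every adjacent sample. Of 9 tested genes of interferon gamma signalling none rose and 3 fell (57.2% and 19.3% of all tested genes): Ifngr1, a receptor chain for interferon gamma, by 1.26, Irf2, a repressor of interferon targets, by 0.77, and Irf1, a transcription factor of class I genes, by 0.71. Irf1 was named after its value was seen. Without tumours 2 and 4, 5 of the signalling genes fell (20.0% of all tested genes), and without tumour 2 alone also 5 (2605 of 13016). Tumour 2 was the highest tumour in 6 of these 9 genes, so the falls gained without it are no support for a fall. With medians subtracted 6 fell (33.3% of all tested genes). Rises of signalling genes numbered 2 without adjacent sample 2. They numbered 1 without adjacent sample 5, without tumour 5 and with the replicate number as a block. Over all tested genes, 7063 to 7625 of 13016 rose with a library left out. The signalling genes that rose in those fits were thus a smaller share than over all tested genes. The same held with the replicate number as a block. Ifng itself was at 0 to 0.48 FPKM and was not tested. The part of interferon gamma in the order of the tumours was not tested.

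**Figure D5:**
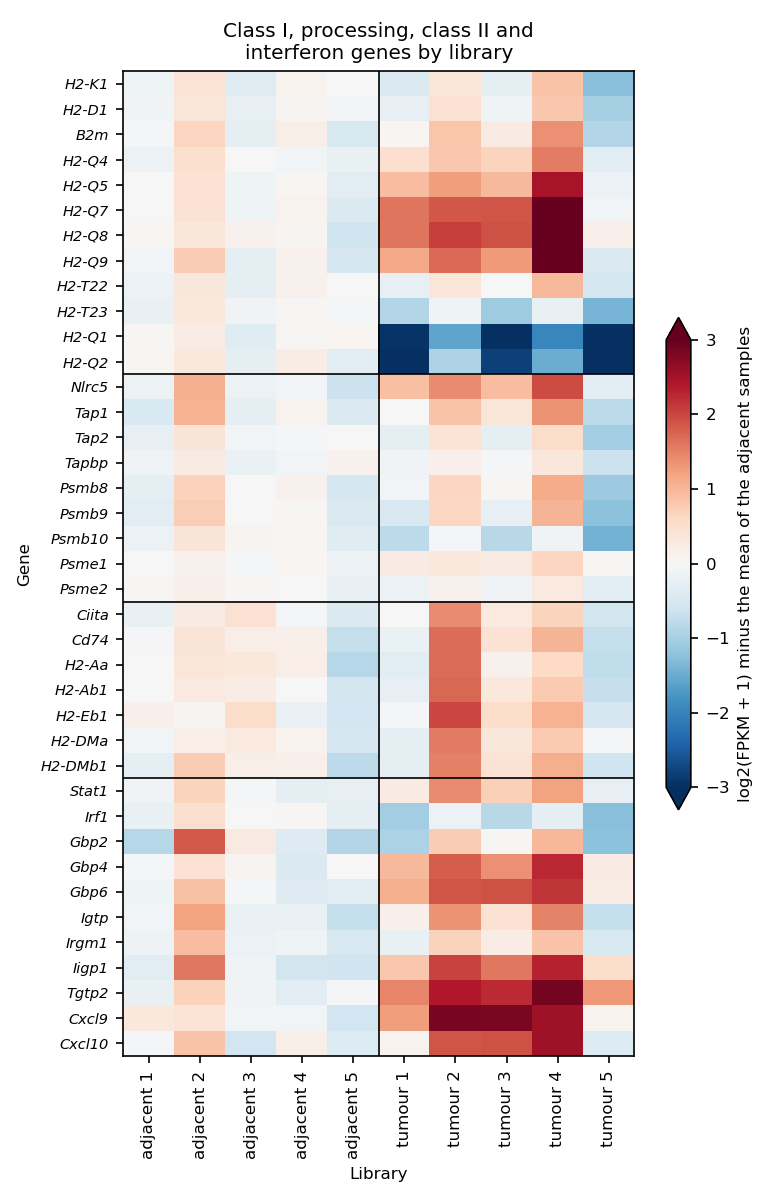
log2(FPKM + 1) of class I, processing, class II and interferon gamma genes in each library, minus the mean of the 5 adjacent samples, with colour from -3 (blue) to 3 (red). Tumour 4 is the reddest column for H2-Q5 and H2-Q7 to H2-Q9 and tumour 2 for the class II genes, tumour 5 is pale or blue in most rows, and H2-Q1 and H2-Q2 are blue in every tumour.

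Markers of macrophages, dendritic cells and T cells are set here beside the 57.2% of all tested genes that rose and the 19.3% that fell. Of 12 macrophage markers 10 rose and 1 fell, with sums of 97.8 to 204 FPKM in adjacent tissue and 334 to 539.9 FPKM in tumours. Itgam rose by 1.87 and C1qa by 1.75, while Mertk, a receptor for apoptotic cells, fell by 1.37. All 4 tested dendritic cell markers of 11 rose, led by Fscn1 by 2.42 and Itgax by 1.29, with sums of 6.08 to 14.0 and 34.7 to 62.9 FPKM. The other 2, Batf3 (0.826 against 2.44 FPKM) and Ccr7 (0.968 against 3.71 FPKM), met the expression filter only through the tumours, so this count is no support for a rise of the list. Of 8 tested T cell markers 3 rose, led by Zap70 by 1.46 and Lck by 0.84, with sums of 9.55 to 18.8 and 17.9 to 49.8 FPKM, a smaller share than over all tested genes. Fcgr1 among the macrophage markers and Cd5 among those of T cells also met the filter only through the tumours. Tumour 2 was the highest tumour for all 4 dendritic, 8 T cell and 4 B cell markers tested and for 10 of 12 macrophage markers. No marker of these lists was at 0 in all libraries. Their part in the class II level of tumour 2 was not tested.

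Of 9 tested genes of endosomal processing, which act around class II, 6 rose and 3 fell, next to 57.2% and 19.3% of all tested genes. March1 was among the rises and met the expression filter only through the tumours. Lgmn and Ctsd, endosomal proteases, rose by 1.27 and 0.92. Ctss, the cathepsin that trims the invariant chain, was at 203, 296, 235, 226 and 254 FPKM in adjacent samples and 93.4, 193, 102, 142 and 89.8 FPKM in tumours. All tumours were below all adjacent samples, a fall of 1.02 (SE 0.20, limma adjusted p = 0.00103). Ifi30, a thiol reductase that unfolds antigens, fell by 0.55, and March8, a membrane ubiquitin ligase named after its value was seen, by 0.24. Of 7 factors that bind class II promoters 6 rose and 1 fell. Rfx5, the DNA-binding subunit of the RFX complex on the X1 element, rose by 1.01, from 4.87 ± 0.511 to 10.9 ± 1.34 FPKM (SD, n = 5 each), and Nfyb, a subunit of the CCAAT-binding factor, by 0.81. Rfxank, the ankyrin-repeat subunit of the same RFX complex, fell by 0.37, from 10.2 ± 0.719 to 7.67 ± 0.899 FPKM. With medians subtracted 2 of the processing genes and 3 of the promoter factors rose, where 34.5% of all tested genes did.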

How the data were processed

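Libraries of 5 tumours and 5 adjacent colon samples were analysed. Per the labels' protocols, polyadenylated RNA was prepared with the TruSeq v2 kit and read on a HiSeq. The deposited table gives FPKM per gene symbol, as the authors computed it. The submitters' processing notes name DESeq2 1.14.1, edgeR 3.16.5, Salmon 0.8.2, RSEM 1.2.15, Cufflinks 2.2.1, TopHat2 2.1.0, GATK and mm10, without stating which made the table. FPKM is relative to a library's total, so each gene's value moves with the others. A line of text was left out.

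The test was limma 3.58.1 (R 4.3.3) on log2(FPKM + 1), by group alone, with trend and robust empirical Bayes, for the 13016 genes whose mean reached 1 FPKM. It was two-sided, with Benjamini-Hochberg adjustment over those genes and a threshold of 0.05. Log2 changes are tumour minus adjacent and are understated for low genes. "Rose" and "fell" mean past this threshold. The 3 proteasome ratios had exact permutation tests. The fit was tested on simulated data. Members and lists were chosen with earlier results of these data known. Every member could be named, and from each list up to 2 largest rises and falls, or the 2 most abundant. Positions, exon overlaps and shared 50-base stretches came from GENCODE M21 (GRCm38), which held 54 of 58 members (not H2-L, H2-Q8, H2-Q9 or H2-T9). Promoters came from RefSeq. Depth came from 106 to 128 low values a library, of which 69.5% to 80.7% fell within 0.2 of whole fragments, so no counting interval was computed. Alternatives were another pseudocount, filter or scaling, a replicate block, plain limma and leaving libraries out. The protein data were not used here. The result of 1 cell type marker is not reported here.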

Additional observations from a re-analysis of the deposited data

Results flagged for a closer look

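Within groups of 5 samples, a value was marked where its gap to the nearest other sample exceeded 0.71 of the group's range (Dixon's 95% critical value). Gaps and ranges were taken on the log2(FPKM + 1) scale, and on log2 of the proteasome ratios. The levels below are FPKM, so the gaps cannot be read from them directly. Of 94 groups examined 4 were marked, and chance marks about 1 in 20. H2-T3 was marked in both groups. Adjacent sample 5 (0.51 FPKM) stood below the other adjacent samples (3.86 to 5.68 FPKM), with a gap of 0.786 of the range. Tumour 2 (0.35 FPKM) stood above the other tumours (0 to 0.04 FPKM), with a gap of 0.869. Cd1d1 in tumour 2 (8.18 FPKM) lay below the other tumours (12.4 to 14.2 FPKM), with a gap of 0.752. H2-T-ps, a class I pseudogene, in tumour 4 (2.47 FPKM) lay above the other tumours (1.24 to 1.45 FPKM), with a gap of 0.795.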

How the results depend on the processing

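The falls of H2-Q1, H2-Q2, H2-K2, H2-T3 and H2-T23 and the rises of Cd1d1, H2-Q7 and H2-Q8 kept their direction and passed with any library left out and with medians subtracted. For H2-T3 this is no support, because it met the expression filter only through adjacent tissue. Over all genes, 4486 were higher and 4329 lower with medians subtracted, 4759 and 3934 with quantile normalization, and 7063 to 7625 and 2324 to 2605 with a library left out. Class I rises numbered 3 with medians subtracted, with quantile normalization and without tumours 2 and 4 (chosen after seeing the data), and 3 to 7 with a library left out. Class I falls stayed at 5 with any library left out, with medians subtracted and with quantile normalization, and were 6 without the filter, 4 with the filter at 5 FPKM, and 7 without tumours 2 and 4. Class II rises were 0 with any library left out, and falls 0 to 1. Class II falls were 1 with a pseudocount of 0.1, with medians subtracted, with quantile normalization and without tumours 2 and 4. Processing rises were 0 with medians subtracted and without tumours 2 and 4, and 0 to 2 with a library left out. Processing falls were 0 without the filter and with quantile normalization, 2 with medians subtracted and without tumours 2 and 4, and 0 to 1 with a library left out. The causes were not tested.

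With the replicate number as a block, class II rises were 1 (H2-DMb1) and processing rises 2 (with Nlrc5), and H2-M3 and H2-Q4 passed. The Psmb10/Psmb7 difference of -1.27 then had an adjusted p of 0.125 in an exact sign-flip permutation test, which 5 pairs cannot bring under the threshold. After each gene's group mean was subtracted, the deviations of like-numbered samples correlated at 0.02 to 0.42. Only adjacent samples 4 and 5 correlated best with the tumour of their own number, so the pairing is not settled. Leaving out a library gave -1.45 to -1.04 for Psmb10/Psmb7 (adjusted p = 0.0476 by exact permutation).

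Several changes that had not passed turned sign (log2). With medians subtracted they were B2m -0.0059, H2-L -0.20, H2-Q10 -0.0063, H2-T-ps -0.24, H2-T22 -0.22, H2-T24 -0.092, H2-Aa -0.069, Erap1 -0.24 and Psmb8 -0.21, and Psme1, which had passed, was -0.032. With quantile normalization they were H2-D1 0.18, H2-K1 0.083, H2-L -0.30, H2-M3 -0.044, H2-Q10 -0.14, H2-T-ps -0.35, H2-T10 -0.057, H2-T22 -0.20, H2-T24 -0.26, Ciita -0.093, Erap1 -0.12 and Psme2 0.048. With a pseudocount of 5, H2-M2 was 0.025. Without tumours 2 and 4 they were B2m -0.19, H2-L -0.31, H2-Q10 -0.082, H2-T-ps -0.023, H2-T22 -0.26, Cd74 -0.17, H2-Aa -0.32, H2-Ab1 -0.20, H2-DMb1 -0.15, H2-Eb1 -0.0053, Ciita -0.079, Erap1 -0.040, Psmb8 -0.38 and Tap1 -0.14. With a library left out the range spanned 0 for H2-D1 (-0.22 to 0.23), H2-K1 (-0.40 to 0.12), H2-L (-0.12 to 0.40), H2-M2 (-0.26 to 0.18), H2-T-ps (-0.032 to 0.14), H2-T22 (-0.10 to 0.27), H2-T9 (-0.34 to 0.040), H2-Aa (-0.091 to 0.52), H2-DMb2 (-0.53 to 0.018), Psmb8 (-0.12 to 0.43), Psmb9 (-0.33 to 0.23), Psme2 (-0.12 to 0.041), Tap2 (-0.29 to 0.11) and Tapbp (-0.16 to 0.082).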

Other observations

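Of 7 tested class I-like genes outside the H2 symbols 3 rose and 3 fell, against 57.2% and 19.3% of all tested genes. Mr1, which presents vitamin metabolites to MAIT cells, was at 0.772 ± 0.410 FPKM in adjacent tissue and 3.58 ± 0.999 FPKM in tumours (SD, n = 5 each), a rise of 1.37 (SE 0.20, limma adjusted p = 0.000121). Its tumour values, 2.33 to 4.56 FPKM, were all above the adjacent ones, 0.31 to 1.30 FPKM. Procr, the endothelial protein C receptor, rose by 1.28. Fcgrt, the neonatal Fc receptor, which pairs with B2m and carries IgG across epithelium, was at 34.0 ± 6.37 FPKM in adjacent tissue and 19.8 ± 9.90 FPKM in tumours and fell by 0.84 (SE 0.26, limma adjusted p = 0.0124), although tumour 2, at 36.8 FPKM, lay within the adjacent range. Azgp1, a soluble class I-like protein, fell by 0.82. The remaining members that passed, named after their values were seen, were Ulbp1, which rose by 0.83, and Raet1e, which fell by 0.68, both ligands of the activating receptor NKG2D.

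Of 4 tested costimulation genes 3 rose, also with medians subtracted (57.2% and 34.5% of all tested genes). Cd40, the receptor through which T cells license antigen presenting cells, rose by 1.29, from 0.848 ± 0.567 to 3.46 ± 0.959 FPKM. Cd86, a ligand of CD28, rose by 1.06, from 0.902 ± 0.494 to 2.95 ± 0.950 FPKM. Cd80, a further ligand of CD28 named after its value was seen, rose by 0.91. Mr1, Ulbp1, Cd40, Cd86 and Cd80 averaged under 1 FPKM in adjacent tissue and passed the expression filter only through the tumours, and Azgp1 only through adjacent tissue, so these counts are no support for a change of either list. In Cd40 and Cd86 every tumour was above every adjacent sample.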
